A study of Rattus norvegicus with 8 samples.

Results

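The class II genes of the rat major histocompatibility complex (RT1) and their regulator were followed in whole blood of male rats of the Wistar stock. They ate a high-fat diet with 1% mulberry leaf powder, or the same high-fat diet alone. The members were 10 genes chosen by symbol: the alpha chain genes RT1-Ba, RT1-Da and RT1-Ha, the beta chain genes RT1-Bb and RT1-Db1, the peptide-loading genes RT1-DMa, RT1-DMb and RT1-DOb, the invariant chain gene Cd74 and the regulator gene Ciita. All probe sets that the platform annotation gives to exactly 1 of these symbols were taken, which found 14 probe sets of 8 genes among 31042 probe sets and 14217 named genes. RT1-DOb and RT1-Ha had no probe set there and were not analysed here. Each diet is represented by 4 Affymetrix expression arrays. The rats were 7 weeks old when bought, were kept on normal chow for 1 week and on their diet for 8 weeks, and were bled on day 56 after a night without food. Each diet group held 10 rats. Arrays of 1 diet are described as biological replicates, without saying whether each holds a single rat or pooled rats. The p-values thus reflect variation among these arrays, part of which may be technical.

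MHC class II molecules are pairs of an alpha and a beta chain that show peptides from ingested material to CD4+ T cells, and in blood they are carried by B cells, monocytes and dendritic cells. The invariant chain Cd74 guides new pairs to endosomes and blocks their groove, and the DM pair then exchanges its remnant for peptide, while DO restrains DM. Ciita, the class II transactivator, is recruited to a promoter enhanceosome made by the RFX, CREB and NF-Y factors and is the limiting switch of the whole group. The rat RT1.B and RT1.D molecules correspond to human HLA-DQ and HLA-DR. RT1 class II genes vary in sequence between haplotypes, and Wistar is an outbred stock.

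The 8 RT1 members lie together on chromosome 20 in the order RT1-Da, RT1-Db1, RT1-Ba, RT1-Bb, RT1-DOb, RT1-DMb, RT1-DMa, RT1-Ha (RefSeq, assembly GRCr8), while Cd74 is on chromosome 18 and Ciita on chromosome 10. Promoter windows of RefSeq, from 250 bases before to 50 after the gene start, were held for 6 of the 8 measured genes. Those of the 4 classical chain genes and Cd74 are printed because, as background, Ciita acts on these genes through factors bound to X and Y boxes near their starts. Capitals mark a Y box, searched as CTGATTGG, and the core of an X box, searched as AGCAAC, both on either strand. These motifs do not overlap each other.
RT1-Ba: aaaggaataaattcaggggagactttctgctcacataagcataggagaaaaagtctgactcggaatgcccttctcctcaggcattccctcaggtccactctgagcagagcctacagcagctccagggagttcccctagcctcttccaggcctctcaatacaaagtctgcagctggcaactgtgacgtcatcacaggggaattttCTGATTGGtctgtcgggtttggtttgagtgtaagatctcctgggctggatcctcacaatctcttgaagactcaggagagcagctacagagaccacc
RT1-Bb: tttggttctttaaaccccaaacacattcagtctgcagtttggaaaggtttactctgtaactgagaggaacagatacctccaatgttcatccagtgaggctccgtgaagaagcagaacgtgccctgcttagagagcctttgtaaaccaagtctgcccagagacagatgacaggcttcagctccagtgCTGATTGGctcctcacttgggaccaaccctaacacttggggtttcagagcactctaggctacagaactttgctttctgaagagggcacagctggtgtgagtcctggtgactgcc
RT1-Da: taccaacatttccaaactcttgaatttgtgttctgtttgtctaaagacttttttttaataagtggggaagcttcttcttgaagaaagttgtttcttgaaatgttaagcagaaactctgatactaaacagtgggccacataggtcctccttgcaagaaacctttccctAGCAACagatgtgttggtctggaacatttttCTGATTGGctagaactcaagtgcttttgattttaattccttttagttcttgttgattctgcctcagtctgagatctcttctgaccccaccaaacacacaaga
RT1-Db1: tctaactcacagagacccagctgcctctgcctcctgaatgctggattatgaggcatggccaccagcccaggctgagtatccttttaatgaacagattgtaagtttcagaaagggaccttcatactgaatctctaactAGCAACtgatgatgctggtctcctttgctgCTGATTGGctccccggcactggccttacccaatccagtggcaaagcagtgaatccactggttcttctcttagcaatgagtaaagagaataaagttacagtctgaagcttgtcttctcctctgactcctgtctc
Cd74: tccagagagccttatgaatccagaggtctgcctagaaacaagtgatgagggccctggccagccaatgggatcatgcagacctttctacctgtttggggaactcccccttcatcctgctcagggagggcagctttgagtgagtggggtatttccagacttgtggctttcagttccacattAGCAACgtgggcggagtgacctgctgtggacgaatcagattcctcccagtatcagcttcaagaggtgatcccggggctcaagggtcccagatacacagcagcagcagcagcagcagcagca
The windows are chr20:4576807-4577106 on the plus strand for RT1-Ba, chr20:4604069-4604368 on the minus strand for RT1-Bb, chr20:4515165-4515464 on the plus strand for RT1-Da, chr20:4560113-4560412 on the minus strand for RT1-Db1 and chr18:56526956-56527255 on the plus strand for Cd74, in GRCr8 and written 5′ to 3′ along the gene.
The Y box letters stood in 4 of the 6 windows, those of RT1-Ba, RT1-Bb, RT1-Da and RT1-Db1, and in 3.5% of 33469 promoter windows of the same length. They began 46, 64, 52 and 83 bases before the gene start in these 4 genes, in that order. The X box core stood in 3 of the 6, RT1-Da, RT1-Db1 and Cd74, against 14.7% of all windows. In RT1-Da and RT1-Db1 it lay upstream of the Y box, beginning 83 and 113 bases before the start. The letters ATTGG, which the Y box contains, stood on either strand in all 6 windows and in 37.5% of all. In Cd74 the only match was on the opposite strand, so it reads CCAAT along the gene, 189 bases before the start. These are letter matches only.

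The deposited values ran from 5.17 to 15.26 and are read as log2 probe set summaries. Arrays differed very little on this scale. Over the 8 arrays the median probe set had an SD of 5.31e-06, for 99.4% it was below 0.001 and for 18 it exceeded 0.01. Distances between arrays are thus squeezed to an unknown degree, not necessarily alike for all probe sets, and no fold changes are given. Each difference is the mulberry mean less the high-fat mean, divided by the SD of the probe set over all 8 arrays. It is said to be in SD units. Where arrays were left out, the SD was that of the arrays kept, and after quantile normalization or median centring that of the new values. Part of a change in such a value can thus come from its divisor. With 4 against 4 arrays, such a difference cannot exceed 1.87 in size. Markers of blood were present at high deposited values, with Hbb, a hemoglobin chain, at a mean of 15.09, the leukocyte antigen gene Ptprc at 11.33, the B cell gene Ms4a1 at 9.19 and the monocyte receptor gene Csf1r at 8.08. No detection calls were used.

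In the deposited values the class II genes were among the transcripts that varied most between arrays. Of the 14 probe sets, 10 had an SD over the 8 arrays above the 95th percentile of all probe sets, where 5.0% of all probe sets lie, and the median member stood at the 98.4th percentile. An RT1-Bb probe set (1371033_at) had the 7th largest SD in the table, 0.0285 on the deposited scale, or 5363 times the median SD. The other RT1-Bb probe set (1371065_at) had an SD of 0.0074, RT1-Ba probe set 1377334_at one of 0.0044 and RT1-DMb, a chain of the peptide exchanger, one of 0.00166. The invariant chain Cd74 had an SD of 0.000991 and RT1-Da of 0.000606. The 4 members below the 95th percentile were both Ciita probe sets, with SDs of 1.18e-05 and 1.79e-05, and RT1-Ba probe sets 1381593_x_at and 1392334_at, with 2.14e-05 and 6.99e-06. The last 2 were built on a shared source sequence, per the platform annotation. Because the squeezing may not be alike for all probe sets, these SDs describe the deposited values and not the size of change in the blood.

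**Figure D1:**
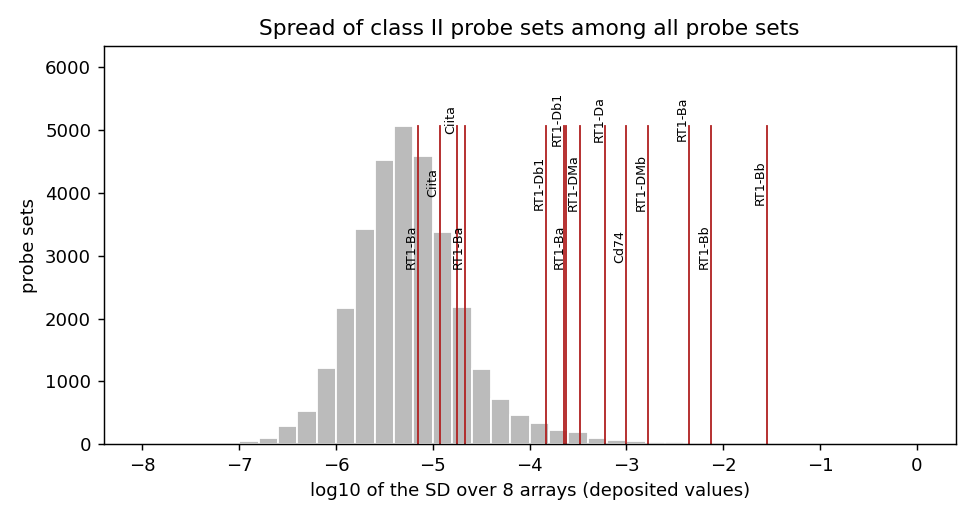
The histogram gives the number of probe sets (vertical axis) by log10 of the SD over 8 arrays on the deposited scale (horizontal axis), and red lines mark the 14 class II probe sets by gene. Of these, 10 lie in the right tail, above the 95th percentile, and the RT1-Bb probe set at the far right has an SD of 0.0285.

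Most class II transcripts had lower means in the mulberry arrays, but no probe set differed beyond the spread between arrays. Lower means were found for 11 of the 14 member probe sets, against 47.3% of all probe sets, and the median member difference was -0.53 SD units, against 0.0559 over all probe sets. After each array was centred on its median, 8 of the 14 had lower means, with a median of -0.38, against a median of 1.15 over all probe sets. The share of all probe sets with lower means is not given for the centred values, so that count has no background. A difference of at least 0.8 SD units downwards was found for 6 members, against 11.6% of all. None of the 14 passed limma's test with Benjamini-Hochberg adjustment over all probe sets (adjusted p = 1.0 for each), as did none in the whole table (0.0% called, smallest adjusted p = 0.569). At an unadjusted limma p under 0.05, 0 members and 1352 probe sets (4.36%) were found. In 0 of the 14 did the 4 mulberry arrays lie wholly apart from the 4 high-fat arrays, as they did for 2.52% of all probe sets. Limma with a trend and robust variances also called 0.

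**Figure D2:**
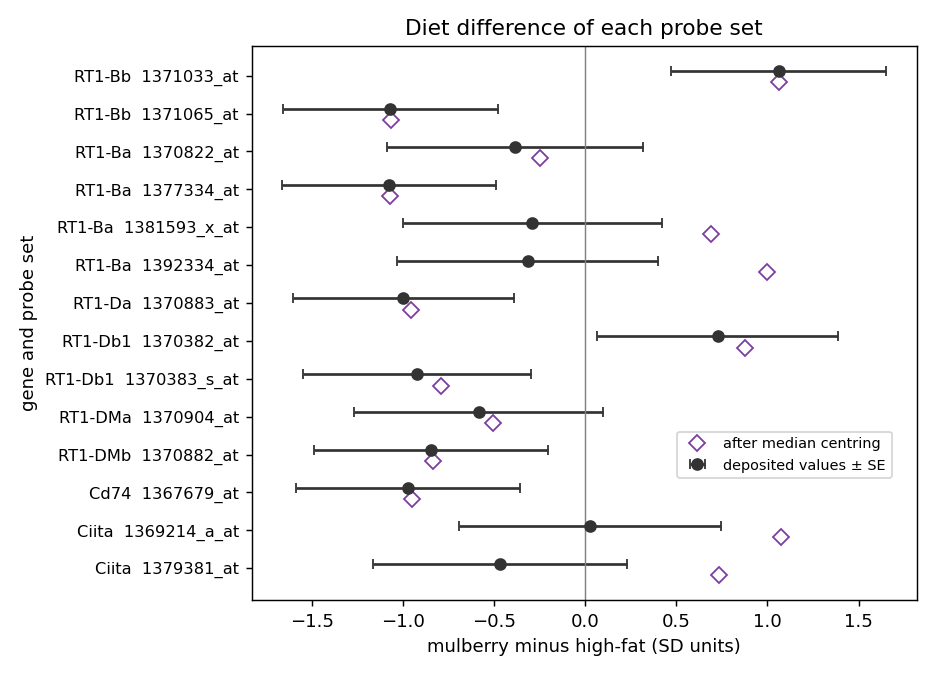
Filled circles give the difference, mulberry minus high-fat in SD units (horizontal axis), with its SE for each of the 14 probe sets, 4 arrays per diet, and open diamonds give it after median centring of the arrays. The differences run from -1.08 to 1.06, and the probe sets of narrow spread (Ciita, RT1-Ba 1381593_x_at and 1392334_at) shift by about 1 unit on centring while the others move less.

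Of the alpha chains, RT1-Da, the alpha chain of the RT1.D molecule, deviated from its mean by -0.701, 0.153, -1.02 and -0.426 SD units in mulberry replicates 1 to 4, and by 1.17, 1.33, -1.25 and 0.749 in high-fat replicates 1 to 4. The mulberry arrays were low or near the mean and 3 of the high-fat arrays were high, but high-fat replicate 3 was the lowest of all, so the groups overlapped. The difference was -1.0 ± 0.607 SD units (SE, limma p = 0.145, exact permutation p = 0.171, two-sided). Without high-fat replicate 3 it was -1.7, still not called.

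RT1-Ba, the alpha chain of the RT1.B molecule, was read by 4 probe sets that did not tell 1 story. Probe set 1377334_at held 8.8671, 8.8762, 8.8684 and 8.8755 in the mulberry arrays, against 8.8767, 8.8788, 8.8725 and 8.878 in the high-fat arrays. Mulberry replicates 1 and 3 were the lowest of the 8, and mulberry replicates 2 and 4 lay among the high-fat arrays. Its difference was -1.08 ± 0.587 SD units (limma p = 0.111, exact permutation p = 0.171). Probe set 1370822_at differed by -0.38 ± 0.703 and was lowest in high-fat replicate 3 (-1.84), with mulberry replicate 1 above its mean (0.495). Its value was -1.47 without high-fat replicate 3, -0.0318 without high-fat replicate 2 and -1.05 after quantile normalization. Probe sets 1381593_x_at and 1392334_at differed by -0.29 ± 0.71 and -0.32 ± 0.714, and these small differences turned to 0.688 and 0.995 after median centring. An x_at suffix marks probe sets with some probes that can match other transcripts.

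The beta chain gene RT1-Bb gave opposite answers from its 2 probe sets. They were not alike in signal, with means of 6.01 for 1371033_at and 7.98 for 1371065_at. The former was the only member below the median of all probe set means. Probe set 1371033_at held 6.0612, 5.9994, 6.0571 and 5.9953 in mulberry replicates 1 to 4, against 5.9996, 5.997, 5.9998 and 5.9957 in high-fat replicates 1 to 4. Mulberry replicates 1 and 3 stood far above, and the other 6 arrays, of both diets, lay within a narrow band. The gap between the 2 sets of arrays took 86.9% of the whole range. Such a gap of at least 80% of the range was found for 28 of the 31042 probe sets (0.0902%), and for 1 of the 14 members, this one. Probe set 1371065_at showed the same 2 arrays at the other end, with 7.9706, 7.9852, 7.9699 and 7.9833 in the mulberry arrays, against 7.9869, 7.9891, 7.9788 and 7.9858 in the high-fat arrays. Here the gap was 42.8% of the range, and high-fat replicate 3 lay next above it. The diet differences were 1.06 ± 0.591 SD units for 1371033_at (limma p = 0.117, exact permutation p = 0.343) and -1.07 ± 0.589 for 1371065_at (limma p = 0.114, exact permutation p = 0.171). Without mulberry replicates 1 and 3, a choice made after the values were seen, they were -0.35 and -0.25. These are in SDs of the 6 arrays kept, which for 1371033_at lay within the narrow band.

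RT1-Db1, the beta chain of the RT1.D molecule, was split in the same way, although both of its probe sets were built on 1 source sequence, per the platform annotation. Probe set 1370382_at deviated by 1.67, -0.464, 1.36 and -1.11 SD units in the mulberry arrays, against -0.0893, -0.606, -0.00937 and -0.75 in the high-fat arrays. Mulberry replicates 1 and 3 were again the highest, and mulberry replicate 4 was the lowest. This probe set ranked all 8 arrays in the same order as 1371033_at of RT1-Bb. The arrays fell into 2 sets there, so no correlation over all 8 is given. Over the 6 arrays other than mulberry replicates 1 and 3, Pearson's r was 0.926 (exact permutation p = 0.00556) and Spearman's rho 1.0 (exact permutation p = 0.00278), among 10 pairs computed on those arrays. On the same 6 arrays, RT1-Bb 1371065_at had an r of -0.27 with 1371033_at (exact permutation p = 0.636, rho -0.14, p = 0.803 by the same test). With RT1-Ba 1377334_at its r was 0.958 (exact permutation p = 0.00556, rho 0.943, p = 0.0167 by the same test). Probe set 1370383_s_at, whose suffix marks probes shared by several transcripts, deviated by -0.724, 0.344, -1.07 and -0.391 in the mulberry arrays, against 1.21, 1.51, -1.13 and 0.25 in the high-fat arrays. It followed the pattern of RT1-Da, with mulberry replicates 1 and 3 and high-fat replicate 3 low. The differences were 0.73 ± 0.661 for 1370382_at (limma p = 0.309, exact permutation p = 0.371) and -0.92 ± 0.625 for 1370383_s_at (limma p = 0.186, exact permutation p = 0.257). Leaving out 1 array gave 0.37 (without mulberry replicate 1) to 1.26 (without mulberry replicate 4) for 1370382_at, and without high-fat replicate 3 the value of 1370383_s_at was -1.51. Without mulberry replicates 1 and 3, that of 1370382_at was -1.02, in SDs of the 6 arrays kept.

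**Figure D3:**
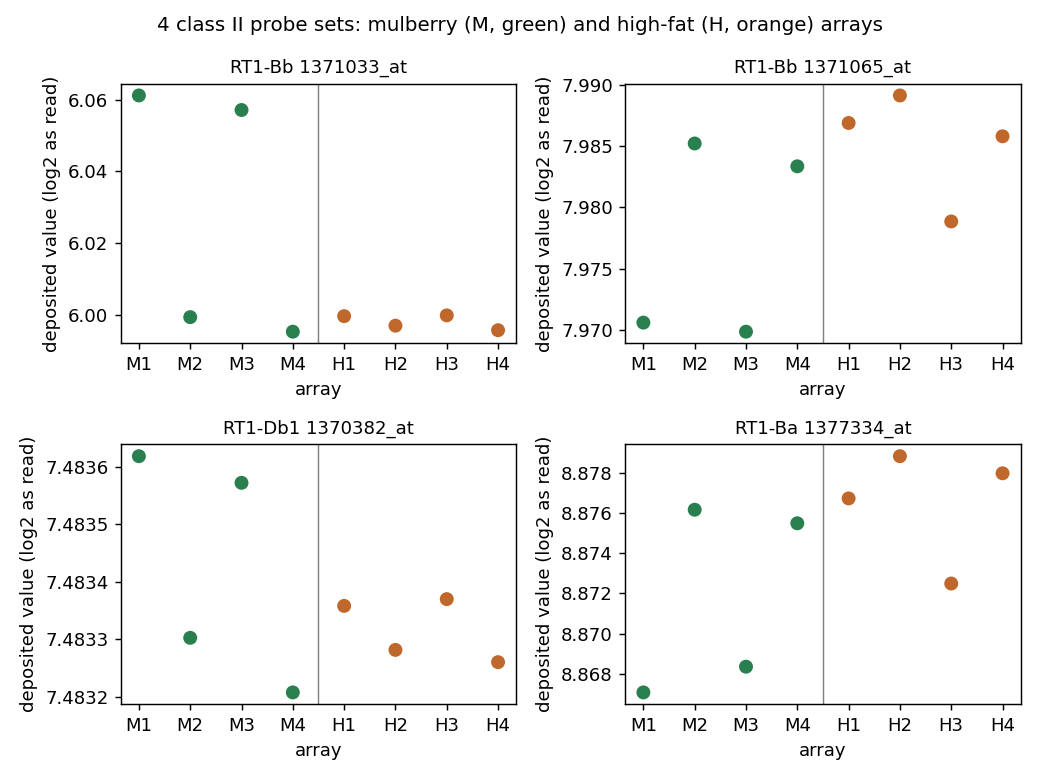
Each panel plots the deposited value (vertical axis, log2 as read) of 1 probe set in each array (horizontal axis), mulberry replicates M1 to M4 in green and high-fat replicates H1 to H4 in orange. M1 and M3 stand above the other 6 arrays for RT1-Bb 1371033_at and RT1-Db1 1370382_at, and below them for RT1-Bb 1371065_at and RT1-Ba 1377334_at.

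RT1-DMa and RT1-DMb, the 2 chains of the peptide exchanger, shared another pattern. RT1-DMb deviated by -0.094, -0.194, -1.15 and -0.253 SD units in the mulberry arrays, against 0.646, 0.473, -1.26 and 1.83 in the high-fat arrays. High-fat replicate 4 was the highest by far, and mulberry replicate 3 and high-fat replicate 3 were the lowest. RT1-DMa deviated by -0.0934, 0.0642, -1.09 and -0.0494 in the mulberry arrays, against -0.0458, 0.374, -1.21 and 2.05 in the high-fat arrays. The differences were -0.85 ± 0.64 for RT1-DMb (limma p = 0.23, exact permutation p = 0.314) and -0.58 ± 0.682 for RT1-DMa (limma p = 0.421, exact permutation p = 0.457). Without high-fat replicate 3 they were -1.51 and -1.15. Without high-fat replicate 4 they were -0.52 and 0.00144, so for RT1-DMa the direction rested on that array.

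Cd74, the invariant chain, deviated by -0.916, 0.41, -1.24 and -0.198 SD units in the mulberry arrays, against 0.928, 1.33, -1.09 and 0.774 in the high-fat arrays. As for RT1-Da, high-fat replicate 3 lay with mulberry replicates 1 and 3 at the low end. The means were -0.486 ± 0.74 in the mulberry arrays and 0.486 ± 1.08 in the high-fat arrays (SD, n = 4 each), a difference of -0.97 ± 0.613 (SE, limma p = 0.158, exact permutation p = 0.171). Without high-fat replicate 3 the difference was -1.54, and after quantile normalization it stood at 0.707. In SD units that is the size found when a single array differs and the others are tied. It is thus not read as a reversed diet difference. Quantile normalization gives each array the same set of values, and it left 5373 probe sets with no spread at all.

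The 2 probe sets of Ciita, the regulator, gave small diet differences of unlike sign. Probe set 1379381_at deviated by 0.0436, 0.228, -0.00629 and -1.2 in the mulberry arrays, against 0.98, 1.55, -1.45 and -0.148 in the high-fat arrays. Mulberry replicates 1 and 3, which were low for Cd74, lay at the mean here. It differed by -0.47 ± 0.696 (limma p = 0.525, exact permutation p = 0.6), and probe set 1369214_a_at by 0.0268 ± 0.72 (limma p = 0.971, exact permutation p = 0.971). Without high-fat replicate 3 they were -1.18 and -0.53, and without high-fat replicate 2 -0.0316 and 0.63. After median centring they stood at 0.735 and 1.08. Whether Ciita differed from its targets was not tested. High-fat replicate 3 was the lowest array and high-fat replicate 2 the highest for both probe sets.

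**Figure D4:**
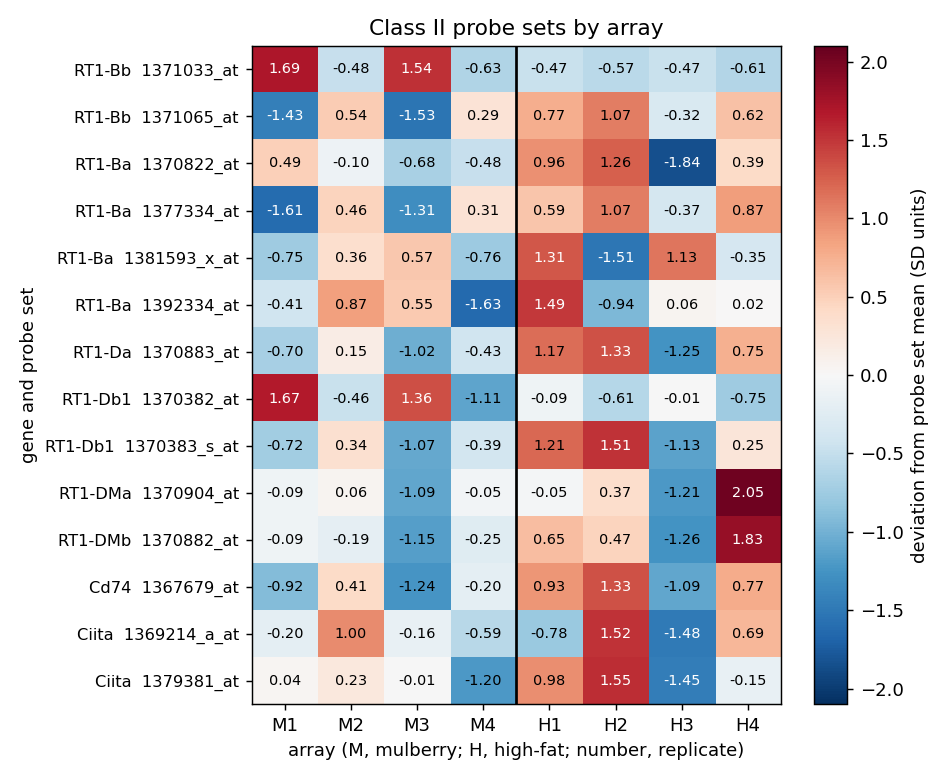
Each row is 1 class II probe set and each column 1 array, mulberry replicates M1 to M4 left of the line and high-fat replicates H1 to H4 right of it, with the printed number and the colour giving the deviation from the probe set mean in SD units. H3 is low for Cd74, RT1-Da, RT1-DMa, RT1-DMb and both Ciita probe sets, and M1 and M3 stand apart for RT1-Bb, RT1-Ba 1377334_at and RT1-Db1 1370382_at.

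From array to array, Cd74 varied with some probe sets of the classical chains and not with others. Over the 8 arrays Cd74 and RT1-Da had a Pearson r of 0.979 (exact permutation p = 0.000248) and a Spearman rho of 0.976 (exact permutation p = 0.000397). The r was 0.97 without the 2 arrays farthest from the median RT1-Da value, 0.983 within the mulberry arrays and 0.994 within the high-fat arrays. Cd74 and RT1-Db1 1370383_s_at had an r of 0.965 (exact permutation p = 0.000124, rho 0.952, p = 0.00114 by the same test, r 0.972 without the 2 farthest arrays). The 2 DM chains had an r of 0.954 (exact permutation p = 0.00174, rho 0.833, p = 0.0154 by the same test). Without the 2 arrays farthest from the median it was 0.844, and with the diet means removed it was 0.959. Adjusted over the 91 pairs of member probe sets, the 3 correlations so far had permutation p = 0.00542, 0.00376 and 0.0197 for r, and 0.00903, 0.0173 and 0.0608 for rho. RT1-Bb 1371065_at and Cd74 had an r of 0.906 (exact permutation p = 0.000546, rho 0.976, p = 0.000397 by the same test, adjusted p = 0.00828 for r and 0.00903 for rho, r 0.989 without the 2 farthest arrays). By contrast, RT1-Ba 1381593_x_at had an r of -0.288 with Cd74 (exact permutation p = 0.474, rho -0.286, p = 0.501 by the same test, adjusted p = 0.655 for r and 0.624 for rho, r -0.353 without the 2 farthest arrays). RT1-Ba 1392334_at had an r of 0.0652 with it (exact permutation p = 0.874, rho -0.0476, p = 0.935 by the same test, adjusted p = 0.959 for r and 0.978 for rho, r -0.347 without the 2 farthest arrays). RT1-Bb 1371033_at and RT1-Db1 1370382_at were highest in mulberry replicates 1 and 3, where Cd74 was low. Over all 91 pairs the median r was 0.332 and 58 pairs were above 0, with the same number after the diet means were removed (median 0.272). Cd74 and Ciita 1379381_at had an r of 0.677 (exact permutation p = 0.0687, rho 0.667, p = 0.0831 by the same test), or 0.673 without the 2 farthest arrays. Adjusted over the 91 pairs, these permutation p-values were 0.208 and 0.199. Within the mulberry arrays its r was -0.108, and within the high-fat arrays 0.931.

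The 5 genes outside the class II set whose arrays ran most like the mean of the 8 members were Prkcb, Slc25a3, Orai2, Ly6e and Tcf4. Their Pearson r over the 8 arrays was 0.987, 0.982, 0.972, 0.965 and 0.963, chosen as the highest among all named genes and given as a description only. Prkcb encodes a protein kinase C of B cell receptor signalling, Slc25a3 the mitochondrial phosphate carrier, Orai2 a store-operated calcium channel subunit, Ly6e a surface protein of the Ly6 family, and Tcf4 a transcription factor of B and plasmacytoid dendritic cells. Their diet differences ran from -1.25 (Ly6e) to -0.92 SD units (Tcf4). Opposite correlations were as strong, the 5 lowest being Klk1c10, Tnni3, Cplx2, Helq and Mast4, with r from -0.981 to -0.962.

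B cell markers had lower means too, and their score ran with some class II probe sets. Of 12 measured B cell markers, 11 had lower means in the mulberry arrays, against 47.3% of all probe sets, 0 passed the limma test, and the median difference was -0.55 SD units (-0.31 after median centring). Fcer2, the low-affinity IgE receptor, differed by -1.03 ± 0.599, Fcmr, the IgM receptor, by -0.98 ± 0.611 and Ms4a1, which encodes CD20, by -0.95 ± 0.617. The B cell score, the mean of these markers in SD units, was -1.01, 0.549, -0.62 and -0.0533 in the mulberry arrays, against 0.901, 1.19, -0.777 and -0.185 in the high-fat arrays. Mulberry replicates 1 and 3 and high-fat replicate 3 were low, as they were for Cd74. Cd74 and this score had a Pearson r of 0.893 (exact permutation p = 0.00585) and a rho of 0.833 (exact permutation p = 0.0154), with r 0.773 without the 2 arrays farthest from the median score. The r was 0.914 within the mulberry and 0.865 within the high-fat arrays. For RT1-Db1 1370383_s_at r was 0.939 (exact permutation p = 0.00104, rho 0.905, p = 0.00456 by the same test), and r was 0.818 without the 2 farthest arrays. Among 42 such relations the adjusted p was 0.0833 for Cd74 and 0.0437 for RT1-Db1 by r (exact permutation), and 0.0718 and 0.0639 by rho. For RT1-DMb r was 0.442 (exact permutation p = 0.278, rho 0.452, p = 0.267 by the same test, 0.306 without the 2 farthest arrays; adjusted p = 0.507 for r and 0.488 for rho). With the B cell score added to the model, the diet difference was -0.40 for Cd74, -0.45 for RT1-Da and -0.31 for RT1-Db1 1370383_s_at. It was -0.56 for RT1-Bb 1371065_at, -0.59 for RT1-Ba 1377334_at, -0.42 for RT1-DMa and -0.62 for RT1-DMb. RT1-Bb 1371033_at and RT1-Db1 1370382_at, which were highest in arrays of low B cell score, stood at 0.73 and 0.36. In whole blood, fewer cells of a type and less RNA per cell cannot be told apart.

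**Figure D5:**
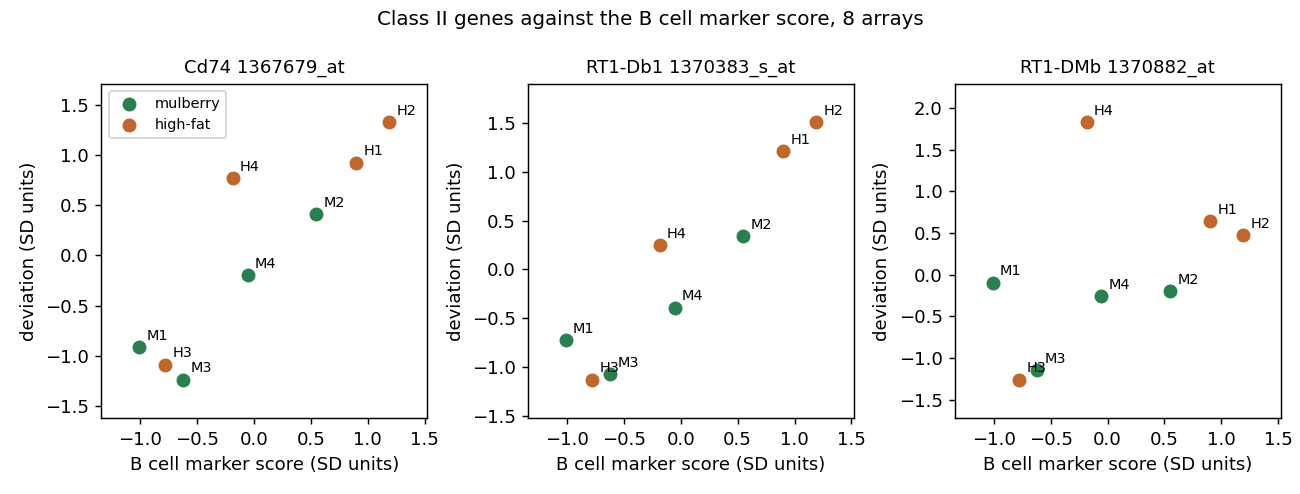
Each panel plots the deviation of 1 probe set (vertical axis, SD units) against the B cell marker score (horizontal axis, SD units) for the 4 mulberry arrays (M1 to M4, green) and the 4 high-fat arrays (H1 to H4, orange). Cd74 and RT1-Db1 1370383_s_at rise with the score (r 0.893 and 0.939), while for RT1-DMb H4 stands apart at 1.83 with a score of -0.185.

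Monocytes and dendritic cells also carry class II. Of 13 monocyte markers 11 had lower means, against 47.3% of all probe sets (median -0.44, and -0.28 after median centring), the score running from -0.834 to 0.35 in the mulberry arrays and from -0.48 to 1.47 in the high-fat arrays. High-fat replicate 4, the highest array for RT1-DMa and RT1-DMb, was also the highest for this score. RT1-DMb and this score had an r of 0.738 (exact permutation p = 0.0397, rho 0.524, p = 0.197 by the same test, adjusted p = 0.119 for r and 0.375 for rho). Without the 2 arrays farthest from the median score the r was -0.000584, so the relation rested on those arrays. Cd74 and the monocyte score had an r of 0.239 (exact permutation p = 0.606, rho 0.214, p = 0.619 by the same test, adjusted p = 0.745 for r and 0.743 for rho, r -0.5 without the 2 farthest arrays). Cx3cr1, the fractalkine receptor, differed by -1.0 ± 0.794 (1.17 after median centring), Ms4a7 by 1.2 ± 0.585 and Cd68, a lysosomal glycoprotein, by -0.79 ± 0.65. Of 8 dendritic cell markers 5 had lower means, against 47.3% of all probe sets (median -0.49, 0.81 after median centring, against 1.15 over all). Clec9a, a receptor of cross-presenting dendritic cells, differed by -1.26 ± 0.59 (1.11 after median centring) and Irf8, a transcription factor of dendritic cells and B cells, by -1.27 ± 0.526 (limma unadjusted p = 0.0471, adjusted p = 1.0). The dendritic cell score ran from -0.704 to 0.214 in the mulberry arrays and from -0.088 to 0.785 in the high-fat arrays. RT1-DMa and this score had an r of 0.854 and a rho of 0.929 (exact permutation p = 0.0146 and 0.00223, adjusted p = 0.0905 and 0.0469), and r was 0.41 without the 2 farthest arrays. RT1-DMa with the B cell score had an r of 0.313 and a rho of 0.667 (exact permutation p = 0.48 and 0.0831, adjusted p = 0.745 and 0.218, r 0.377 without the 2 farthest arrays). RT1-Ba 1377334_at and the dendritic cell score had an r of 0.811 and a rho of 0.929 (exact permutation p = 0.00965 and 0.00223, adjusted p = 0.0833 and 0.0469), and r was 0.855 without the 2 farthest arrays. For Cd74 and this score r was 0.742 and rho 0.857 (exact permutation p = 0.0273 and 0.0107, adjusted p = 0.115 and 0.0643, r 0.747 without the 2 farthest arrays). Differences between these correlations were not tested.

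Other blood cells were read as well. Lower means in the mulberry arrays, which 47.3% of all probe sets had, were found for 7 of 7 natural killer markers (median -0.9). They were also found for 4 of 8 T cell markers (0.03) and 3 of 5 erythroid markers (-0.04). Higher means, which 52.7% of all probe sets had, were found for 6 of 6 platelet markers (0.82) and 6 of 7 neutrophil markers (0.47). After median centring the medians were -0.72, 1.11, 0.59, 0.94 and 1.33 in the order of these lists, against 1.15 over all probe sets. The natural killer score ran from -0.568 to -0.207 in the mulberry arrays and from -0.43 to 2.06 in the high-fat arrays, and high-fat replicate 4 was the highest. The part of these cells in the class II differences was not tested. The hybridization controls, bacterial transcripts added to every array, scored from -0.236 to 1.3 in the mulberry arrays and from -1.44 to 0.439 in the high-fat arrays. With them in the model the differences were -0.75 for Cd74, -0.78 for RT1-Da, -0.84 for RT1-Db1 1370383_s_at and -0.69 for RT1-Bb 1371065_at. They were 0.56 for RT1-Bb 1371033_at, -0.65 for RT1-Ba 1377334_at, -0.41 for RT1-DMb, -0.24 for RT1-DMa and 0.14 for RT1-Db1 1370382_at.

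Genes that act before, beside and after the class II chains did not pass the limma test either (0 called in each list). Of the 7 promoter regulators measured, 5 had lower means, against 47.3% of all probe sets. Their median of -0.60 SD units turned to 1.11 after median centring, where the median over all probe sets was 1.15. Rfxap, an RFX subunit, differed by -1.1 ± 0.605 and Rfx5, the DNA-binding subunit, by -0.94 ± 0.625. Rfxank, the ankyrin subunit, had a higher mean (1.11 ± 0.581). After median centring the 3 were 1.11, 0.934 and 1.31. Of 9 measured genes that feed into Ciita, 8 had lower means, against 47.3% of all probe sets (median -0.79, 0.73 after centring), and 3 had an unadjusted limma p under 0.05, against 4.36% of all (adjusted p = 1.0 for each). These were Prdm1, a repressor of Ciita in plasma cells, at -1.45 ± 0.465 (0.945 after centring), Irf8, given above, and the interferon-gamma receptor kinase Jak1 at -1.27 ± 0.529 (-0.45 after centring).

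Endosomal processing genes were split, 5 of 10 having lower means (median -0.16, 0.35 after median centring). Over all probe sets, 47.3% had lower means, and the median after median centring was 1.15. Ctss, the protease that trims the invariant chain, differed by -0.84 ± 0.641 and Lgmn, the asparaginyl endopeptidase, by -0.84 ± 0.642, while Cst3, which encodes the protease inhibitor cystatin C, had a higher mean (1.15 ± 0.569). Of 5 turnover genes 4 had lower means (median -0.78, 0.27 after centring). Cd83, which protects surface class II from ubiquitination, differed by -1.25 ± 0.535 (-1.1 after centring). The ubiquitin ligase genes Marchf8 and Marchf1 differed by -0.84 ± 0.641 and -0.78 ± 0.652 (-0.249 and 0.268 after centring). Of 7 costimulation and adhesion genes 6 had lower means (median -0.43, 1.0 after centring), with Cd80 at -1.16 ± 0.578, Cd48 at -1.15 ± 0.565 and Cd40 at -0.61 ± 0.68. After centring Cd80 and Cd40 turned to 1.03 and 0.678, and Cd48 stood at -1.13. On the T cell side, Cd4, the coreceptor that binds class II, differed by -1.17 ± 0.581 (0.967 after centring). Cd40lg differed by -0.65 ± 0.684 and Cd28 by 0.86 ± 0.642 (1.11 and 1.17 after centring). Of these 3 genes, 2 had lower means (median -0.65, 1.11 after centring). The 5 listed class II genes outside the members had no probe set of their own in the annotation and were not analysed here.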

How the data were processed

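The authors deposited 1 table of processed values for the 8 arrays, read here as log2 probe set summaries from their range, with the log base not stated. Total RNA (200 ng per sample, isolated with TRIzol LS and an RNeasy column) was labelled with the GeneChip 3' IVT Express kit, per the labels' protocols. How the values were summarised and normalized is not given in the sources used here. No further normalization was applied to the main values, and 57 control probe sets were left out of the tests. Of the 31042 tested probe sets, 20826 named 1 gene in the platform annotation, 436 several and 9780 none. Several probe sets of a gene were kept apart for the members, and for lists the one of highest mean was used. Diets were compared with limma 3.58.1 in R 4.3.3 (lmFit, eBayes, two-sided, no covariate, Benjamini-Hochberg adjustment over all probe sets, threshold 0.05). Exact two-sided permutation tests used the 70 assignments of arrays (smallest possible p = 0.0286) or all pairings of arrays (Python 3.11.15). No detection calls were used, so expressed and unexpressed probe sets were not told apart. The number of arrays limits the precision. The fit was tested on simulated data. Same-numbered arrays of the 2 diets correlated at -0.0462, -0.0505, 0.246 and 0.163 in their deviations from the diet means. Arrays of different numbers correlated at -0.199 to 0.147, so replicates 3 and 4 exceeded these values while replicates 1 and 2 did not. The numbers were not taken as pairs in the main fit, and a fit with a replicate block is given below. The named genes were all members and the 3 genes of smallest unadjusted p in each list. Of the latter, those of the class II pathway and its carrier cells are given. The 5 genes most like the members and the 5 most opposite were named too, and the last section names further genes. The members, the 15 lists (14 with a measured gene) and the tests were chosen with earlier results of these data known. The alternatives changed the normalization (quantile, median centring), the probe sets kept, the arrays left out, the variance model or the SD unit, or added a replicate block or 1 of 2 covariates.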

Additional observations from a re-analysis of the deposited data

Results flagged for a closer look

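In 28 groups of 4 arrays (each member probe set in each diet) the highest and lowest arrays were compared with their neighbours. In 3 groups an array stood apart by more than 0.829 of the group's range, while chance gives about 1 such group in 20. The groups are not independent, and the number of flags was not tested against chance. Mulberry replicate 3 stood below the other mulberry arrays for both DM chains, at -1.09 SD units for RT1-DMa (gap 0.864 of the range) and at -1.15 for RT1-DMb (0.849). High-fat replicate 3 was at a like level for both genes. Within the mulberry arrays the 2 DM chains had a Pearson r of 0.977. For Ciita 1379381_at, mulberry replicate 4 stood below the other mulberry arrays at -1.2 SD units (gap 0.836 of the range). The cause was not tested.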

How the results depend on the processing

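Without any 1 array, 10 to 12 of the 14 member probe sets had lower means in the mulberry arrays and the median difference ran from -1.22 (without high-fat replicate 3) to -0.44 SD units, with 0 probe sets of the table called. A fit with the replicate block called 0 and left the median at -0.53. Quantile normalization called 12 probe sets of the table, 11 of which had no spread left inside either diet, and 0 members, and 8 of the 14 members had lower means. It put Cd74 and RT1-Ba 1392334_at at 0.707 each, the size found when a single array differs and the others are tied. It left 0 for RT1-Db1 1370383_s_at and Ciita 1369214_a_at. Median centring turned RT1-Ba 1381593_x_at to 0.688, RT1-Ba 1392334_at to 0.995 and Ciita 1379381_at to 0.735. It shifts all probe sets of an array alike, which is more in SD units where the spread is narrow. With the hybridization controls in the model, RT1-Ba 1381593_x_at, RT1-Ba 1392334_at and Ciita 1369214_a_at were 0.364, 0.0731 and -0.54. With the B cell score, RT1-Ba 1370822_at and Ciita 1379381_at were 0.0728 and 0.0381. Without mulberry replicates 1 and 3 together, added after the data were seen, 13 of 14 had lower means. RT1-Bb 1371033_at and RT1-Db1 1370382_at turned to -0.35 and -1.02, in SDs of the arrays kept. Leaving out 1 array also turned Ciita 1369214_a_at (-0.53 to 0.63), RT1-Ba 1381593_x_at (-0.99 to 0.11), RT1-Ba 1392334_at (-0.68 to 0.21) and RT1-DMa (-1.15 to 0.00144). Leaving out probe sets that can match several transcripts, also added later, gave 9 of 11 lower. Among probe sets with a mean above the median of all probe set means, 11 of 13 members were lower. For these settings the share of all probe sets with lower means is not given. None of these counts, also that of 13 of 14, is thus set against the whole table.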

Other observations

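Probe sets outside the class II set that set mulberry replicates 1 and 3 apart were looked up after the class II values had been seen. RT1-A, a class I heavy chain gene, deviated by -1.21, -0.023, -1.79 and 1.16 SD units in mulberry replicates 1 to 4, against 0.426, 0.633, 0.243 and 0.564 in high-fat replicates 1 to 4 (probe set 1370429_at). RT1-CE12, a further class I gene of the RT1 complex on chromosome 20, deviated by -1.54, -0.122, -1.37 and 1.35 in the mulberry arrays, against 0.0967, 0.712, 0.415 and 0.458 in the high-fat arrays. Ly6g6c, also on chromosome 20, had the opposite sign, with 1.19, -0.546, 1.91 and -0.0405 in the mulberry arrays, against -0.786, -0.505, -0.443 and -0.77 in the high-fat arrays. The probe sets 1393108_at and 1397859_x_at, unnamed here, had the same 2 arrays far above the rest, with gaps of 88.8% and 79.7% of their range. Their SDs over the 8 arrays were 0.0156 and 0.0579, and none of these 5 differed between the diets by limma (adjusted p = 1.0 for each). By Pearson's r, the named genes outside the members most like RT1-Bb 1371033_at were Ky, Ttbk2, Phox2a, Fry and LOC102552347. They were chosen as the highest among all named genes and are given as a description only. Their r ran from 0.946 to 0.964, and their Spearman rho was 0.976, 0.405, 0.5, 0.357 and 0.333 in that order. They lie on chromosomes 8, 3, 1, 12 and 16, with SDs of 6.34e-06 or less. Whether the pattern reaches beyond chromosome 20 was not tested. The most opposite was Tbxas1 on chromosome 4, with RT1-A at rank 2 and RT1-CE12 at rank 5.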
